A study of Rattus norvegicus with 6 samples.

Results

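The 10 genes followed here encode the neurofilament subunits and other main building blocks of the neuronal and axonal cytoskeleton. They were picked by symbol (*Nefl*, *Nefm*, *Nefh*, *Ina*, *Prph*, *Tubb3*, *Tuba1a*, *Stmn2*, *Map1b* and *Mapt*), and each matched 1 row among the 22050 genes of the table. All 10 were among the 14426 genes that passed the filter on low counts. RNA was sequenced from the spinal cord of sham-operated rats (Sham) and of rats with spared nerve injury and neuropathic pain (SNI-NP). Each group had 3 libraries, which the labels number as replicates without saying whether each came from 1 rat. The methods describe male Sprague-Dawley rats, young adults by the age stated there. For the sequenced tissue, neither the days after surgery nor the spinal level are given in the sources used here. The methods do name a spinal level for the tissue used in qPCR. Nothing states that the rats of a group were operated on or processed independently, so the p-values measure the spread between these libraries.

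Neurofilaments are heteropolymers of the light, medium and heavy chains (*Nefl*, *Nefm*, *Nefh*) with alpha-internexin (*Ina*) in central neurons and peripherin (*Prph*) mostly in neurons that project to the periphery. They fill large myelinated axons and set their calibre. Microtubules, the tracks of axonal transport, are built from alpha- and beta-tubulin (*Tuba1a*, *Tubb3*) and are stabilised by *Map1b* and by tau (*Mapt*), whereas stathmin-2 (*Stmn2*) binds free tubulin and is abundant in growing axons. After a peripheral axon is cut, sensory and motor neurons are known to lower neurofilament mRNA and to raise tubulin and peripherin mRNA in their cell bodies.

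Where the RNA came from matters for these genes, since as a set they are made by neurons both inside and outside the cord. The libraries held 16670800 to 18151200 estimated counts each, to 6 significant digits, and the smallest count of any of the 10 genes was 1188, so counting error was at most 2.9% of a value. All 10 genes of a list for dorsal root ganglion neurons, the sensory neurons whose cell bodies lie outside the cord, passed the filter. Their summed level was 419, 822 and 957 CPM (counts scaled to library size with TMM factors) in Sham replicates 1 to 3 and 92.0, 1291 and 938 in SNI-NP replicates 1 to 3. SNI-NP replicate 1 was therefore lowest by a wide margin, and the highest sum was 14.0 times the lowest. The sums for neurons in general (10 of 10 passed, 933 to 1676 CPM) and motor neurons (5 of 6 passed, 35.4 to 75.0 CPM, *Mnx1* not among them) varied less. The genes of the motor neuron list, looked at after its values were seen, did not move together. *Isl1* (0.575 to 6.78 CPM) and *Isl2* (0.863 to 22.5 CPM) were lowest in SNI-NP replicate 1 and highest in SNI-NP replicate 2, as was the ganglion sum. *Chat*, *Slc18a3* and *Slc5a7* were highest in Sham replicate 1. The oligodendrocyte list (7 of 7 passed) summed to 30080.2 to 40961.8 CPM. For 6 genes of the myelin of peripheral nerve, the sums were 22699, 23598 and 19438 CPM in Sham and 29299.9, 22009 and 28211 CPM in SNI-NP libraries, so SNI-NP replicates 1 and 3 were above all Sham libraries and replicate 2 was among them. Of these 6 genes 2 were higher in SNI-NP rats at an edgeR unadjusted p under 0.05, and 0 without SNI-NP replicate 1. The part of this level in the results below was not tested. Thus the libraries labelled spinal cord held markers of central cells together with those of peripheral nerve and sensory ganglion neurons. The fold changes of the 10 genes are therefore also given without SNI-NP replicate 1 where that library moved them. In bulk tissue, fewer neurons of a type and less RNA per neuron cannot be told apart.

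The 250 bases before the start of *Prph*, *Tubb3* and *Ina* are shown because the first pair were ranked almost alike across the 6 libraries and *Ina* was not. Sequences are from RefSeq, build GRCr8, which held an entry for 5 of the 10 genes, and capitals mark TATAA on the strand shown. *Prph* lies at chr7:132097039-132097288, *Tubb3* at chr19:68365437-68365686 and *Ina* at chr1:255837879-255838128, all on the plus strand.
Prph: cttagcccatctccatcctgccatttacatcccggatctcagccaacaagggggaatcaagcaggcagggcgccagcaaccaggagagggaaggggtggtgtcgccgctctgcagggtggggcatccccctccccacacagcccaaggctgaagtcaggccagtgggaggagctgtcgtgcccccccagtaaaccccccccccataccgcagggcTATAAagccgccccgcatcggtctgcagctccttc
Tubb3: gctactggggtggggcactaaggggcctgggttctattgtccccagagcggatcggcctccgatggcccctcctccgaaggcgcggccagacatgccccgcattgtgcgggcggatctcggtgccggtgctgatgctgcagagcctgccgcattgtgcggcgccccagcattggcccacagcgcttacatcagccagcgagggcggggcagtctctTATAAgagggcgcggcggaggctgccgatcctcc
Ina: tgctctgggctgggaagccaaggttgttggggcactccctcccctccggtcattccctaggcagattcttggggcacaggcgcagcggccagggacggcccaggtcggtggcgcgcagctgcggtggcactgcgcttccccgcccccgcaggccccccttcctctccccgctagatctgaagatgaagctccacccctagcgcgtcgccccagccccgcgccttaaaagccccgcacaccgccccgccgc
The letters TATAA, on either strand, were found in 24% of the 33469 promoter windows of this length. On the strand shown they began 35 bases before the start of *Prph* and 34 bases before that of *Tubb3* and were not found in the *Ina* window, and the 2 matches in *Tubb3*, 1 on each strand, overlap. *Tuba1a* (60 bases) and *Map1b* (48 bases) also held them. The AP-1 letters TGANTCA, present on either strand in 6.34% of all windows, were in none of these 5, and the GC box GGGCGG (30.5% of all windows) was in 4 of the 5 and not in *Map1b*. In the same build *Nefl* and *Nefm* are neighbours on chromosome 15, with no other protein-coding gene starting between them, and *Tuba1a* and *Prph* are likewise neighbours on chromosome 7.

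Levels per length (FPKM, as deposited) show how abundant these mRNAs were. In Sham rats *Tuba1a* was highest at 2008 ± 179 FPKM (SD, n = 3). *Nefh* (688 ± 153), *Nefl* (681 ± 139), *Nefm* (627 ± 95.6) and *Tubb3* (536 ± 124) followed, and neighbours in this order differed by less than 1 SD. *Stmn2* (262 ± 56.5), *Map1b* (204 ± 31.5) and *Prph* (194 ± 56.3) formed the next step, of which the last pair differed by less than 1 SD, and *Mapt* (53.9 ± 11.9) and *Ina* (26.9 ± 10.5) were lowest. In SNI-NP rats *Tubb3* stood second at 603 ± 298 FPKM, above *Nefl* (475 ± 233), *Nefh* (462 ± 205) and *Nefm* (347 ± 151), and each step in this order was smaller than 1 SD. *Prph* (252 ± 173) stood above *Map1b* (142 ± 40.9) there, again by less than the SD of *Prph*.

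All 3 neurofilament chains had fold changes below 0, of which that of the medium chain passed an unadjusted threshold. Whether the chains differ from each other is a separate test, given below relative to *Nefl*. *Nefm* was at 1762, 1671 and 2245 CPM in the Sham libraries and at 564, 1405 and 1242 in the SNI-NP libraries. Every SNI-NP value lay below every Sham value, and replicate 1 was the lowest. The fitted log2 fold change was -0.82 (standard error 0.32), a level of 0.566 times Sham, with an unadjusted p of 0.0358 and an adjusted p of 0.443 by edgeR's quasi-likelihood test. Without SNI-NP replicate 1 it was -0.52 (standard error 0.17, unadjusted p = 0.0178). The unadjusted p was above 0.05 without any of the other libraries except SNI-NP replicate 2, and the highest was 0.109, without Sham replicate 3.

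The light chain, without which the other chains do not assemble well, and the heavy chain, whose long tail carries many phosphorylation sites, did not pass the threshold. *Nefl* was at 2118, 1895 and 2836 CPM in Sham and at 790.4, 2298 and 1779 CPM in SNI-NP libraries. *Nefh* was at 2349, 2181 and 3306 CPM in Sham and at 960.3, 2455 and 1949.6 CPM in SNI-NP libraries. For both genes the groups overlapped, since SNI-NP replicate 2 lay above Sham replicates 1 and 2. Their log2 fold changes were -0.49 (standard error 0.36, edgeR unadjusted p = 0.215) for *Nefl* and -0.55 (standard error 0.33, unadjusted p = 0.144) for *Nefh*. Leaving out SNI-NP replicate 1 gave -0.16 for *Nefl* and -0.25 for *Nefh*, and leaving out SNI-NP replicate 2 gave -0.83 and -0.84. Of these, only the last had an edgeR unadjusted p under 0.05 (unadjusted p = 0.0425).

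*Ina*, the alpha-internexin gene, was at 162.0, 66.9 and 137 CPM in Sham and at 93.1, 91.1 and 83.5 CPM in SNI-NP libraries. The SNI-NP values lay close together, within the wide Sham range, and SNI-NP replicate 1 was not low for this gene. The fitted log2 difference was -0.45 (standard error 0.29, edgeR unadjusted p = 0.161). Sham replicate 2 decided this, since without it the value was -0.74 (standard error 0.11, edgeR unadjusted p = 0.000544). In its rank across libraries *Ina* stood apart from the other filament genes, with Sham replicate 2 lowest. That library was also lowest for the summed neuron list (933 CPM) and the summed astrocyte list (749 CPM).

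*Prph*, the peripherin gene, was at 234, 342 and 428 CPM in Sham and at 130.1, 722 and 478 CPM in SNI-NP libraries. SNI-NP replicates 2 and 3 were above all Sham libraries and replicate 1 was below them all, a 5.55-fold spread within the group. Fitted over all libraries, the log2 difference was 0.40 (standard error 0.54, edgeR unadjusted p = 0.477). It was 0.84 with SNI-NP replicate 1 left out (standard error 0.27, edgeR unadjusted p = 0.0181) and -0.14 with replicate 2 left out, so 1 library decided the direction.

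**Figure D1:**
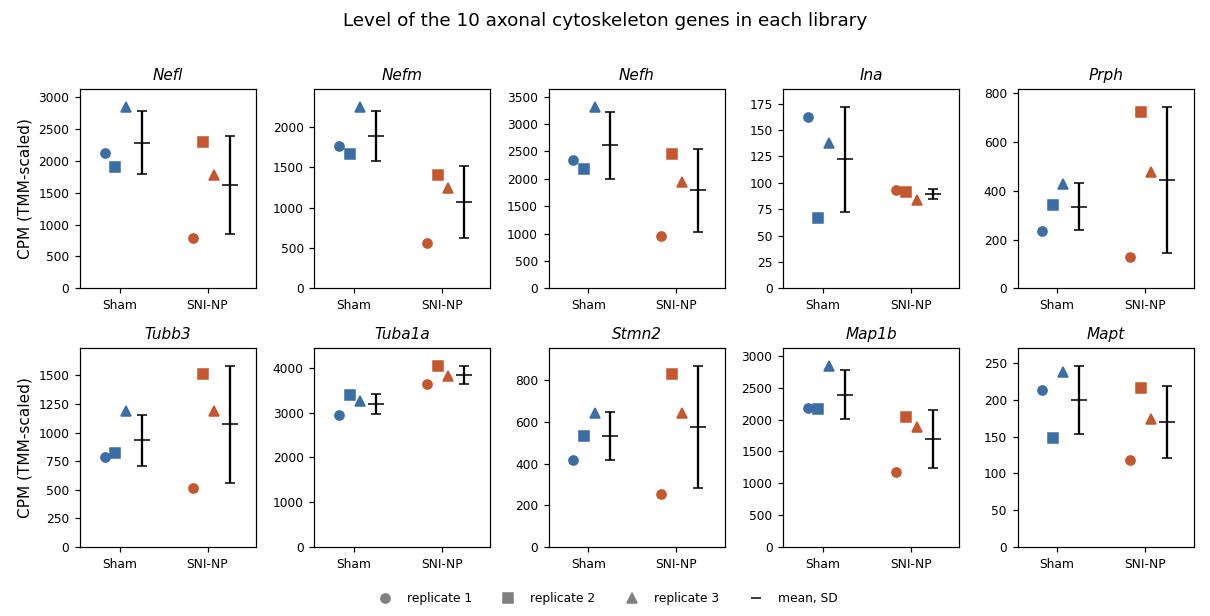
CPM of the 10 genes (one panel each, axis from 0), with points for single libraries shaped by replicate number and a bar for mean and SD of each group. SNI-NP replicate 1 (circle) is the lowest of all 6 libraries for 8 of the genes and not for *Ina* or *Tuba1a*, and *Nefm*, *Map1b* and *Tuba1a* are the 3 genes whose groups do not overlap.

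For the microtubule genes the directions were mixed. *Tubb3*, the neuronal beta-tubulin gene, was at 788, 825 and 1191 CPM in Sham and at 516, 1516 and 1188 CPM in SNI-NP libraries. *Stmn2* was at 417, 534 and 646 CPM in Sham and at 254, 831 and 642 CPM in SNI-NP libraries. In both, replicates 1 and 2 of the SNI-NP group were the lowest and the highest of the 6. The log2 fold changes were 0.20 (standard error 0.37, edgeR unadjusted p = 0.606) for *Tubb3* and 0.11 (standard error 0.39, unadjusted p = 0.781) for *Stmn2*. Leaving out SNI-NP replicate 1 gave 0.53 (edgeR unadjusted p = 0.0408) for *Tubb3* and 0.47 (edgeR unadjusted p = 0.0579) for *Stmn2*, and leaving out replicate 2 gave -0.13 and -0.25.

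*Map1b*, which binds and stabilises microtubules in axons, was at 2173, 2162 and 2841 CPM in Sham and at 1184, 2039.7 and 1881 CPM in SNI-NP libraries. The groups did not overlap, but the log2 fold change of -0.49 (standard error 0.22) had an edgeR unadjusted p of 0.0621. It was -0.29 without SNI-NP replicate 1 (edgeR unadjusted p = 0.122) and -0.64 without replicate 2 (unadjusted p = 0.034). An offset for transcript length also gave -0.29 (edgeR unadjusted p = 0.345). *Map1b* has the longest transcript of the 10, at 11866 bases as implied by its counts and FPKM, and the unadjusted p was under 0.05 with DESeq2 (0.0334).

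*Tuba1a*, an alpha-tubulin gene of neurons, varied least between libraries. It was at 2949, 3388 and 3256 CPM in Sham and at 3649, 4044 and 3830.4 CPM in SNI-NP libraries. All SNI-NP values lay above all Sham values, and SNI-NP replicate 1 was not apart. The log2 fold change was 0.26 (standard error 0.12), with a p of 0.0557 by edgeR and of 0.0258 by DESeq2, both unadjusted. It was under 0.05 by edgeR without Sham replicate 2 (unadjusted p = 0.0389) or SNI-NP replicate 1 (unadjusted p = 0.0498). Its counts were not whole in any library, as were those of its close copies *Tuba1b* and *Tuba1c*, so reads may have been divided among them. The 3 genes together made 6802 ± 358 CPM in Sham and 7916 ± 364 CPM in SNI-NP libraries (mean ± SD of 3), a log2 difference of 0.22 (standard error 0.12, edgeR unadjusted p = 0.105).

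*Mapt*, which encodes tau, was at 213, 148 and 238 CPM in Sham and at 119, 216 and 174 CPM in SNI-NP libraries. The groups overlapped, and the log2 fold change of -0.24 (standard error 0.25, edgeR unadjusted p = 0.374) was -0.035 without SNI-NP replicate 1. *Mapt* was the only one of the 10 whose length, as implied by count, FPKM and library total, differed between libraries by more than 0.05%. It was 3951, 3665 and 3627 bases in the Sham libraries and 4117, 3556 and 3654 in the SNI-NP libraries, a range of 15.8%. The groups overlapped, and the longest values were in SNI-NP replicate 1 and Sham replicate 1, the libraries with the lowest level of the ganglion list. A range above 10% was found for 3.33% of the 7847 genes with at least 5 FPKM in every library. How the authors computed the length is not given in the sources used here.

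Counted over all 10 genes, 1 member (*Nefm*) had an edgeR unadjusted p under 0.05, against 10.8% of all genes tested in either direction and 5.94% in the lower direction, so this count is near the background. No member passed an adjusted p of 0.05, nor did any other gene (0%), with 1565 genes at an unadjusted p under 0.05. DESeq2 gave an unadjusted p under 0.05 for 3 members (*Nefm*, *Map1b* and *Tuba1a*), beside 1684 of all genes. Its adjusted p was under 0.05 for 0 members and for 210 genes, 1.48% of the 14143 with an adjusted p. Of the 10 fold changes 6 were below 0 and the median was -0.34 (-0.099 without SNI-NP replicate 1), whereas 49.1% of all genes were below 0 and their median was 0.0057. The groups did not overlap for 2 members with SNI-NP below (8.15% of all genes) and for 1 member with SNI-NP above (10.4%). Without SNI-NP replicate 1, 4 members had an unadjusted p under 0.05 (13.1% of the 14577 genes then tested). Of these, *Nefm* was lower (9.52% of genes) and *Prph*, *Tubb3* and *Tuba1a* were higher (3.56% of genes). The smallest adjusted p-value among the 10 was then 0.227.

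The level of the ganglion list moved with several members. From lowest to highest, the libraries stood in the order SNI-NP 1, Sham 1, Sham 2, SNI-NP 3, Sham 3, SNI-NP 2 for the summed ganglion list, and the order was identical for *Tubb3* and for *Stmn2*. *Prph* had the same order but for Sham 3 and SNI-NP 3, which traded places. The neurofilament triplet also had SNI-NP 1 lowest, but Sham 3 highest. The part of this level in the fold changes above was not tested beyond the fit with a covariate described next. From lowest to highest library the ganglion list spanned 14.0-fold, *Prph* 5.55-fold, *Nefm* 3.98-fold, *Nefl* 3.59-fold, *Stmn2* 3.27-fold, *Tubb3* 2.94-fold and *Tuba1a* 1.37-fold.

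**Figure D2:**
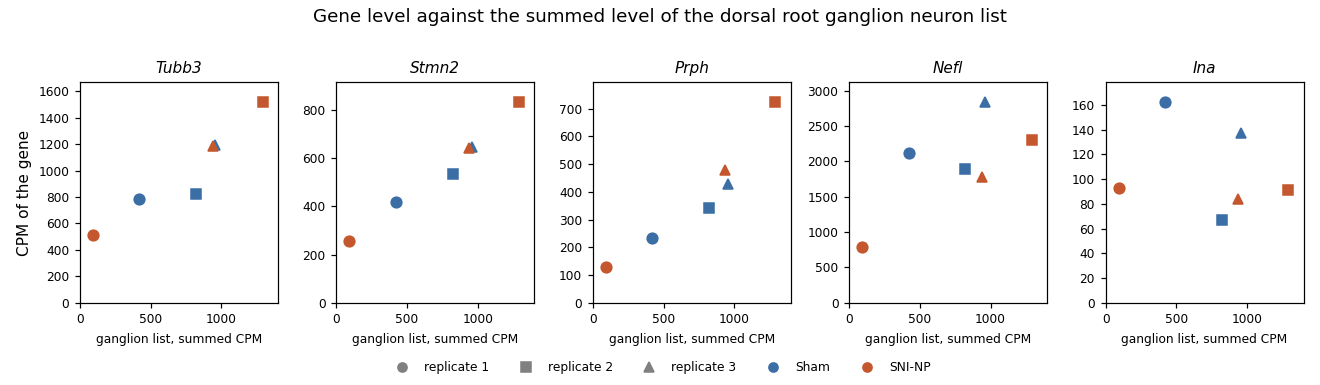
CPM of 5 genes against the summed CPM of the 10 genes of the dorsal root ganglion list (horizontal axis, all axes from 0), 1 point per library, coloured by group and shaped by replicate. *Tubb3* and *Stmn2* rank the 6 libraries as the list does, while *Ina* does not, and SNI-NP replicate 1 lies far left at 92.0 CPM.

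A fit with the log2 summed level of this list as a covariate was added after the values were seen. The log2 fold change of *Nefm* was then -0.75 (standard error 0.14, edgeR adjusted p = 0.0536), and those of *Nefl* and *Nefh* were -0.43 and -0.47 (standard errors 0.17 and 0.16). *Prph* had 0.46 (standard error 0.12), *Tuba1a* 0.29 (standard error 0.11) and *Map1b* -0.42 (standard error 0.13). These 6 genes had an unadjusted p under 0.05, against 15.4% of all genes in the same fit, and none an adjusted p under 0.05. The log2 fold changes of *Tubb3* (0.28), *Stmn2* (0.20), *Mapt* (-0.19) and *Ina* (-0.48) did not pass in this fit. Their edgeR unadjusted p-values were 0.0908, 0.113, 0.375 and 0.145.

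**Figure D3:**
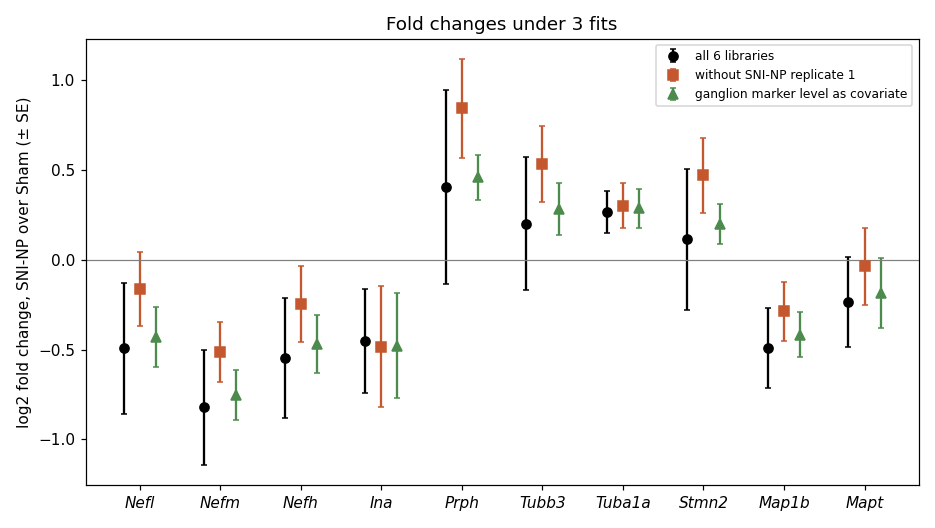
Log2 fold changes of SNI-NP over Sham with standard errors for each gene, from all 6 libraries (circles), without SNI-NP replicate 1 (squares) and with the ganglion marker level as covariate (triangles). *Nefm* lies below 0 in all 3 fits (-0.82, -0.52 and -0.75), and *Prph* and *Tubb3* lie above 0 with the widest errors when all libraries enter.

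Since a low library lowers most of these genes together, their counts were also set against each other within a library, taking *Nefl*, the core subunit, as the reference. This reference was chosen after the values were seen. For every 100 counts of *Nefl*, *Nefm* had 83.2, 88.2 and 79.2 counts in Sham and 71.4, 61.2 and 69.8 in SNI-NP libraries. *Tubb3* had 37.2, 43.5 and 42.0 counts in Sham and 65.2, 66.0 and 66.8 in SNI-NP libraries. *Stmn2* had 19.7, 28.2 and 22.8 in Sham and 32.2, 36.2 and 36.1 in SNI-NP libraries. In these 3 the groups did not overlap, and SNI-NP replicate 1 lay with the other SNI-NP libraries. The share of all other genes tested that lay wholly above Sham relative to *Nefl* was 12.3%, and the share that lay wholly below was 0.153% (22 of 14425 genes, *Nefm* among them).

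*Prph* had 11.1, 18.1 and 15.1 counts per 100 of *Nefl* in Sham and 16.5, 31.4 and 26.8 in SNI-NP libraries, with replicate 1 inside the Sham range. *Nefh* had 111, 115 and 117 in Sham and 121, 107 and 109.6 in SNI-NP libraries, so the heavy to light chain ratio differed by less than its spread. For *Map1b* (88.8 to 150 counts over all libraries), *Tuba1a* (115 to 462), *Ina* (3.53 to 11.8) and *Mapt* (from 7.81 upward) the groups overlapped, and SNI-NP replicate 1 had the highest ratio in each. Relative to *Nefl*, the mean log2 difference was 0.69 for *Tubb3*, 0.58 for *Stmn2* and -0.31 for *Nefm*. Each had a two-sided exact permutation p of 0.1, the smallest that 3 libraries against 3 allow. After Benjamini-Hochberg adjustment over the 9 genes it was 0.3 for each. An edgeR fit over all genes was also run with *Nefl* as the library scale. Its unadjusted p was 0.241 for *Tubb3*, 0.338 for *Stmn2* and 0.598 for *Nefm*. Of the 9 genes 0 had a p under 0.05 (4.15% of all genes). The standard error was 0.581 to 0.589 for all 9 genes, however widely their ratios varied. These p-values therefore do not measure the spread of each ratio and cannot decide whether a ratio differed. The median over all genes in that fit was 0.73, so the values of *Tubb3* and *Stmn2* relative to *Nefl* were no larger than that of a typical gene, whereas that of *Nefm* was on the other side of 0. Without SNI-NP replicate 1 the unadjusted p of this edgeR fit was 0.00186 for *Prph*, 0.024 for *Tubb3*, 0.0497 for *Stmn2* and 0.259 for *Nefm*. The adjusted p-values were 0.0831, 0.442, 0.651 and 0.96. The share of all genes under 0.05 was not counted without that library, so these members have no background beside them. The standard errors of the 9 genes lay at 0.29 to 0.33 in that fit, so its p-values have the same limit.

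**Figure D4:**
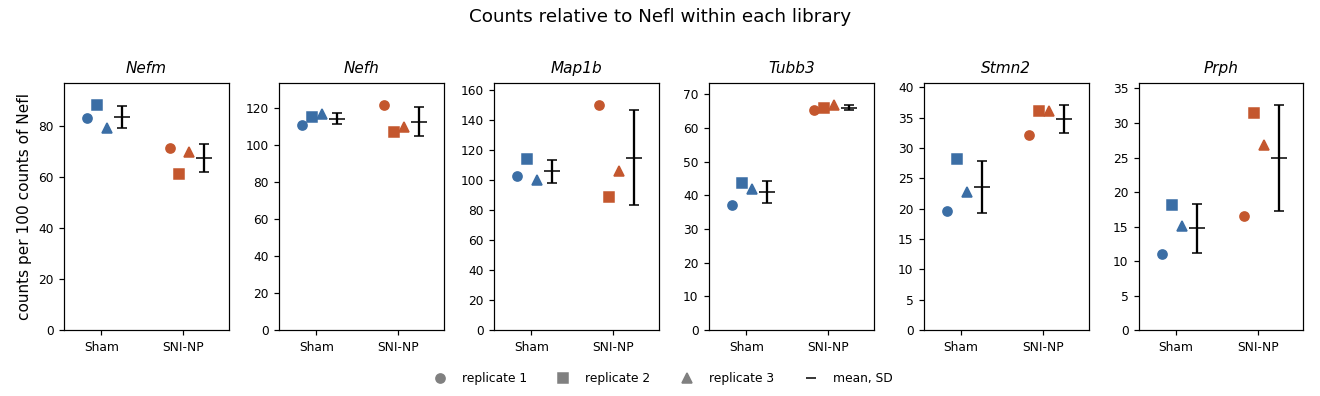
Counts of 6 genes per 100 counts of *Nefl* in each library (axis from 0), with points shaped by replicate number and mean and SD bars per group. *Tubb3* lies at 37.2 to 43.5 in Sham and at 65.2 to 66.8 in SNI-NP libraries without overlap, *Stmn2* and *Nefm* also separate, and *Nefh* overlaps.

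Per length, the make-up of the neuronal intermediate filament mRNA pool was also compared, as the share of each gene in the summed FPKM of *Nefl*, *Nefm*, *Nefh*, *Ina* and *Prph*. *Nefl* made up 30.7% ± 0.939 in Sham and 30.5% ± 0.178 in SNI-NP libraries (mean ± SD of 3). The share of *Nefm* was 29.1%, 29.0% and 27.1% in Sham and 24.2%, 20.8% and 23.5% in SNI-NP libraries, without overlap (exact permutation p = 0.1, two-sided, the smallest possible). That of *Prph* was 6.75%, 10.4% and 9.03% in Sham and 9.74%, 18.7% and 15.8% in SNI-NP libraries, with replicate 1 inside the Sham range (exact permutation p = 0.2, two-sided). *Nefh* (30.9% ± 0.833 and 30.4% ± 2.12) and *Ina* (1.22% ± 0.514 and 1.54% ± 0.978, SD, n = 3 per group) differed by less than their spread. After Benjamini-Hochberg adjustment over the 5 genes, the exact permutation p was 0.5 for the shares of *Nefm* and *Prph*. SNI-NP replicate 1, lowest in level for *Nefm*, had the highest *Nefm* share of the 3 SNI-NP libraries.

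**Figure D5:**
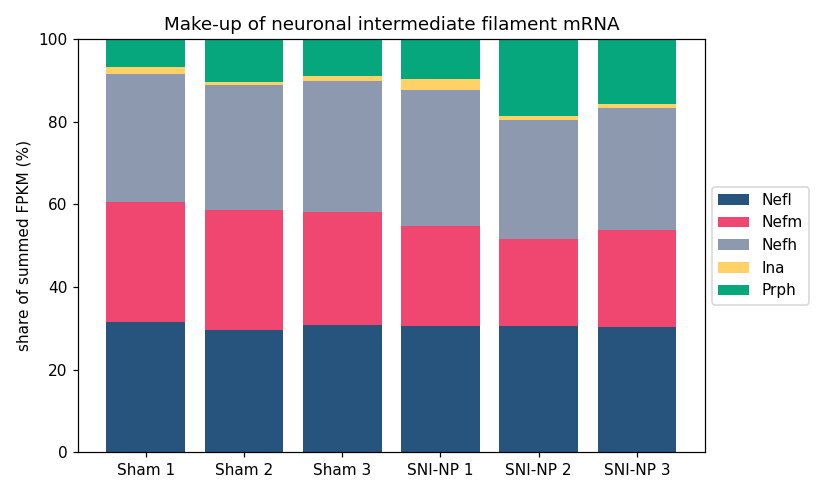
Stacked share (%) of 5 intermediate filament genes in their summed FPKM for each of the 6 libraries, from *Nefl* at the bottom to *Prph* at the top. *Nefl* lies between 29.7% and 31.5% throughout, *Nefm* is 27.1% to 29.1% in Sham and 20.8% to 24.2% in SNI-NP libraries, and *Prph* is largest in SNI-NP replicates 2 and 3.

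The rest of the axonal cytoskeleton was described with 6 lists of 58 genes in all, of which 57 were tested. At an edgeR unadjusted p under 0.05, 9 were lower in the SNI-NP group and 1 was higher, which is 17.5% beside the background of 10.8%. Of all genes, 5.94% were lower at this threshold. Without SNI-NP replicate 1, 8 of the list genes were lower and 2 were higher, beside 9.52% and 3.56% of all genes. The median log2 fold change of the 57 genes with all libraries was -0.054. No adjusted p was under 0.05.

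Among the 12 other tubulins only *Tubb6*, a beta-tubulin of many cell types, passed, with 33.6, 50.0 and 41.8 CPM in Sham and 66.4, 55.4 and 52.7 CPM in SNI-NP libraries. The groups did not overlap (log2 fold change 0.48, standard error 0.17), and the edgeR unadjusted p was 0.0719 without SNI-NP replicate 1. In that fit *Tubb2b*, named after its values were seen, was the one that passed instead, at 0.70 (unadjusted p = 0.00493) against 0.49 with all libraries (unadjusted p = 0.0787). Of 20 tested genes for microtubule-associated proteins and stathmins, 5 were lower, and 4 without SNI-NP replicate 1. *Camsap2*, whose product binds microtubule minus ends, was at -0.56 on the log2 scale (standard error 0.14). *Map2*, the dendritic microtubule-associated protein gene, was at 308, 135 and 237 CPM in Sham and at 158, 60.1 and 73.2 CPM in SNI-NP libraries, which overlapped (log2 fold change -1.22, standard error 0.42, and -1.76 without SNI-NP replicate 1). *Map9* had -0.43 (standard error 0.12), and *Dcx*, the doublecortin gene of young neurons, had -0.85 (standard error 0.28) at no more than 4.2 CPM in any library.

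Of 10 genes for kinases that act on tau or neurofilaments, 2 were lower. *Ttbk2*, a tau-tubulin kinase gene, was at 32.0, 26.8 and 27.8 CPM in Sham and at 16.6, 11.8 and 13.5 in SNI-NP libraries. The groups lay well apart, and the log2 difference, -1.05 (standard error 0.16), had the smallest p of the 57 genes, with an edgeR adjusted p of 0.185. *Gsk3b*, a kinase gene for tau among many substrates, had -0.31 (standard error 0.10).

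Of 3 plakins, giant proteins that link filaments to microtubules and actin, *Dst* (-0.55, standard error 0.14) and *Macf1* (-0.66, standard error 0.27, and -1.01 without SNI-NP replicate 1) were lower. None of the 4 glial and progenitor filament genes passed, with *Vim* at 0.30 (standard error 0.15) and *Gfap* at -0.20 (standard error 0.33). None of the 8 growth cone and axon shaft genes passed either, with *Marcksl1* and *Add1* both at 0.086 (standard errors 0.13 and 0.10). Without SNI-NP replicate 1 the growth cone gene *Gap43*, named after its values were seen, passed at 0.67 (edgeR unadjusted p = 0.00187), against 0.36 with it (unadjusted p = 0.288). The count changed with the libraries included, and 5 of the 57 passed without Sham replicate 1 but 19 without Sham replicate 2.

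The 5 genes whose log2 CPM followed the neurofilament triplet most closely over the 6 libraries, among genes with at least 10 CPM on average, were *Ncoa7*, *Slitrk3*, *Entpd4*, *Caprin2* and *Hsph1*. Pearson's r with the mean standardised level of *Nefl*, *Nefm* and *Nefh* was 0.999, 0.995, 0.995, 0.993 and 0.993. SNI-NP replicate 1 was the lowest point for each, and over the other 5 libraries r was 0.994, 0.966, 0.965, 0.967 and 0.984. These 5 libraries were among the 6 used to pick the genes. *Ncoa7* was at 36.6, 36.1 and 44.5 CPM in Sham and at 21.2, 36.5 and 32.4 in SNI-NP libraries. Among the members, *Map1b* was nearly as close (r = 0.989, and 0.964 without SNI-NP replicate 1). *Stmn2*, *Tubb3* and *Prph* had r between 0.704 and 0.777 over 6 libraries and between -0.063 and 0.1 over 5. *Mapt* had 0.883 and 0.718. For *Ina* r was 0.348 over 6 libraries and 0.612 over 5, and for *Tuba1a* it was -0.337 and -0.442.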

How the data were processed

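RNA-seq libraries of spinal cord, 3 Sham and 3 SNI-NP, were used, with groups from the sample labels. The estimated counts deposited by the authors are unscaled and were rounded here. FPKM values were deposited by the authors with them. Reads were mapped to a reference called Rat6. The submitters' processing notes name FastQC, STAR and HTSeq. Some deposited counts are not whole (*Tuba1a* among the members) and some implied lengths vary between libraries, which plain HTSeq counting does not give, so the tool behind the values is not settled. Versions, annotation and strand setting are not given in the sources used here. Genes were filtered by filterByExpr, scaled by TMM and tested with edgeR 4.0.16 (R 4.3.3), quasi-likelihood test with condition as the only term and Benjamini-Hochberg adjustment over all genes. The edgeR common dispersion equalled a coefficient of variation of 0.223. Alternatives were DESeq2 1.42.0, RLE and upper-quartile factors, no filter, at least 10 counts in every library, the replicate number as a block, loess length offsets (span 0.5) with and without the block, limma 3.58.1 on log2(FPKM + 1) and log2(FPKM + 0.1), and leaving out each library. The ganglion covariate and ratios to *Nefl* came after the data were seen. Fits were tested on simulated data. Member genes, lists and tests were chosen with earlier results of these data known. The named genes are the 10 members, at most 4 genes per related list by p below 0.05 (otherwise the 2 highest by FPKM), and the 5 closest to the neurofilament triplet. The axon injury (7 of 9 higher), microglia (0 of 6), skeletal muscle (1 of 5 tested higher, 10.2 to 423 CPM summed) and blood lists (4 of 5 tested higher) were tabulated by edgeR unadjusted p under 0.05, as were neurons (2 of 10 lower), motor neurons (0 of 5), dorsal root ganglion neurons (0 of 10), oligodendrocytes (0 of 7) and astrocytes (1 of 6 lower). Of a list for peripheral myelin, 6 genes are reported (2 higher), and the rest is not reported here.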

Additional observations from a re-analysis of the deposited data

How the results depend on the processing

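The number of the 10 genes with an unadjusted p under 0.05 was 1, beside 1565 of all genes. It was 3 with DESeq2 (1684 of all genes) and 2 with the replicate block (1319). It was 2 with limma on log2(FPKM + 1) and log2(FPKM + 0.1) (1721 and 1677), and 6 with the ganglion covariate (2217). Leaving out 1 library gave 0 to 4 (0 when Sham 1, Sham 3 or SNI-NP 3 was dropped, 2 for Sham 2, 3 for SNI-NP 2 and 4 for SNI-NP 1). The number at an adjusted p under 0.05 was 0 in every fit run. Over all genes the 1565 became 908, 1019 and 917 when Sham 1, Sham 3 or SNI-NP 3 was dropped. It became 2134 for Sham 2, 1385 for SNI-NP 2 and 1907 for SNI-NP 1. The 10 related genes became 5 to 19 when 1 library was dropped. The replicate block, where same-numbered libraries share only a number (correlations of deviations 0.214, -0.143 and 0.0538), brought *Map1b* past the threshold by edgeR (unadjusted p = 0.0352). The fold change of *Stmn2* turned sign with the block (-0.027), the block and length offset (-0.051), log2(FPKM + 1) (-0.069) and log2(FPKM + 0.1) (-0.070). Dropping 1 library gave -0.25 to 0.47 for *Stmn2*, -0.14 to 0.84 for *Prph* and -0.13 to 0.53 for *Tubb3*, and relative to *Nefl* -0.077 to 0.017 for *Nefh*, -0.30 to 0.70 for *Ina* and -0.12 to 0.27 for *Map1b*. Of the members' fold changes under alternatives, 141 kept their sign and side of the threshold, 17 came past it, 4 fell short of it (all *Nefm*) and 8 turned sign. The cause was not tested. With 3 libraries per group, differences smaller than the spread between libraries could not be resolved.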
